A study of Culex quinquefasciatus with 20 samples.

Results

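The genes described here are those that took up the largest number of reads in adult females of the southern house mosquito, Culex quinquefasciatus. A gene was a member when its mean over all 20 libraries was at least 1000 CPM, where CPM is the number of a gene's counts in each 1000000 counts of the library, with the library total scaled by the trimmed mean of M-values (TMM). The rule kept 164 of 17499 genes that passed the filter on low counts, and 19793 genes were in the count tables. Because the values that chose the members are the same counts that are compared below, membership and high CPM are a description and not a result. Counts were not divided by transcript length, so the order of the members is an order of counts and not of RNA molecules.

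Each group held 5 libraries, and each library was made from the whole bodies of 10 pooled females. The CO group was the Sebring colony, a laboratory strain susceptible to insecticide and not exposed to any. The WI group was reared from eggs collected in the field in Houston and was not exposed either. Females of both were collected 3 days after emergence and knocked down in the cold before storage. Other field females, also 3 days old, spent 120 min in bottles with 400 µg malathion each, an organophosphate that inhibits acetylcholinesterase. Females that the methods call dead, and the sample descriptions call knocked down, when the exposure ended made up the MS (malathion susceptible) group. Survivors were held for 24 h and, if living then, made up the MR (malathion resistant) group, so the outcome of the exposure and the time of collection cannot be told apart between MR and MS. The genotype field reads wild type for WI, MS and MR and names the Sebring strain for CO. Replicates are named technical in the methods but biological in the sample titles, and the p-values below measure only the spread between these pools.

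In a whole insect, a small number of genes usually makes up much of the messenger RNA. They encode the proteins that cells need in bulk: subunits of the respiratory chain and of ATP synthase, which make ATP in mitochondria; enzymes of glycolysis; ribosomal proteins; the actin and myosin filaments of flight and leg muscle; cuticular proteins of the exoskeleton; and digestive peptidases of the midgut. In whole bodies, fewer cells of a type and less RNA per cell cannot be told apart.

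Few members could be given a name. The sources used here named CPIJ000162 (60S ribosomal protein L8, a protein of the large ribosomal subunit), CPIJ005595 (Fatty acid synthase S-acetyltransferase) and CPIJ006160 (Glutathione s-transferase). With the members that carry a functional term in the study's enrichment lists, 41 of 164 members had some annotation and 123 had none. Those lists hold only genes that the study called different in these libraries, and their longer entries are shortened, so a term tells what a gene is annotated with but the changes of these genes are not independent evidence of a direction. The tissue was not checked against marker genes, for the same lack of names.

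Total counts on genes ranged from 143972261 to 189723320 per library, which leaves counting error small beside the spread between pools for nearly all members. MS replicate 1 stood apart from the other MS libraries, with a TMM factor of 1.08 against 0.563 to 0.704, and values without it are given for most summaries over members and wherever leaving it out changed the call of a described member. For the other called values of described members, leaving it out moved the log2 fold change by at most 0.20 in MS versus WI and 0.18 in MR versus MS. The libraries within a group differed by far more than sampling noise, so no library was counted as a repeat of another.

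Across the 20 libraries, the 164 members took between 40.3% and 69.3% of all counts on genes. Their share was 50.9% ± 8.38 (SD, n = 5) in CO, 55.8% ± 6.36 in WI, 64.2% ± 6.38 in MS and 55.3% ± 3.51 in MR. Without MS replicate 1, in which the share was 53.5%, the mean of the MS group was 66.9%. Since the members were chosen on these counts, no test of the share was made.

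The composition of this share also varied between the groups. CPIJ040092 and CPIJ016836, the members with the highest mean CPM and neither with a name, together took 8.83% ± 3.22 of the counts in CO, 16.2% ± 4.97 in WI, 25.2% ± 8.37 in MS and 19.4% ± 5.64 in MR. The members ranked 3 to 10 took 3.26% ± 0.65 in CO, 5.25% ± 0.79 in WI, 11.1% ± 0.43 in MS and 6.53% ± 0.98 in MR. The MS libraries, at 10.4% to 11.6%, were all above every library of the other groups in this share, and without MS replicate 1 the mean was 11.3%. The remaining members ran the other way, with 38.8% ± 7.45 in CO, 34.3% ± 4.26 in WI, 27.9% ± 2.33 in MS and 29.4% ± 1.61 in MR. Ranks were set by the mean over the same libraries, and a gene could reach ranks 3 to 10 mainly through MS. The differences between these shares therefore follow in part from the ranking and are a description.

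**Figure D1:**
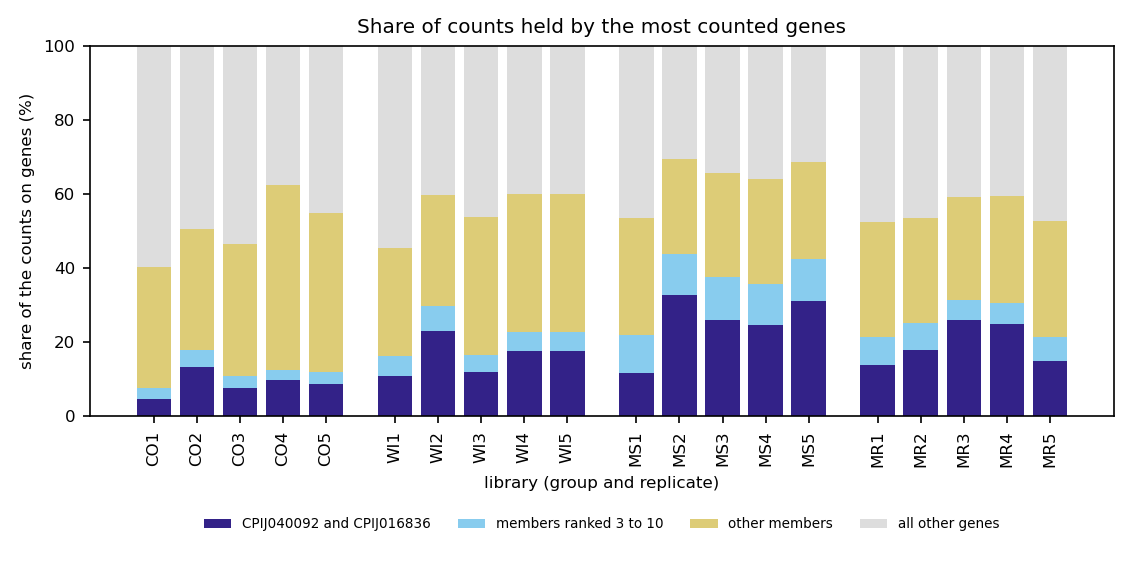
Stacked bars give the share of counts on genes (y axis, percent) in each of the 20 libraries (x axis, group and replicate number) for the 2 most counted genes, the members ranked 3 to 10, the other members and all other genes. The members' total lies between 40.3% in CO replicate 1 and 69.3% in MS replicate 2, and the lowest band is tallest in MS replicates 2 and 5.

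How unevenly the counts of a library were spread over genes was also measured without the list of members, as the number of most counted genes that together made up 50% of its counts. This number was 254, 133, 174, 69 and 99 in CO replicates 1 to 5 and 186, 81, 118, 82 and 79 in WI. It was 99, 18, 32, 42 and 21 in MS and 134, 121, 85, 84 and 136 in MR, so that MS replicates 2 to 5 were below every other library and MS replicate 1 was inside the range of the other groups. MR exceeded MS by 1.66 on the log2 scale, and MS was 1.57 below WI (log2 difference -1.57), with exact two-sided permutation p-values of 0.0238 and 0.0317. After Benjamini-Hochberg adjustment over 4 comparisons both were 0.0635, above the threshold, where the smallest raw p that 5 against 5 can give in an exact permutation test is 0.00794. Without MS replicate 1 the differences were 2.04 and -1.95 and the adjusted exact permutation p-values were both 0.0159, whereas without MS replicate 2 the differences were 1.42 and -1.33 (adjusted exact permutation p = 0.0952 and 0.111). WI and CO differed by -0.36 (adjusted exact permutation p = 0.540), and MR and WI by 0.09 (adjusted exact permutation p = 0.690). When CPIJ040092 and CPIJ016836 were left out, the number was 108 to 151 in MS against 189 to 213 in MR, and that difference of 0.76 passed the threshold (adjusted exact permutation p = 0.0317). Between MS and WI the difference without these genes was -0.48 and did not pass (adjusted exact permutation p = 0.0635).

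The 10 most counted genes of each library, chosen separately in each, took 16.8% ± 3.77 of the counts in CO, 23.6% ± 5.20 in WI, 37.8% ± 8.45 in MS and 26.5% ± 4.92 in MR. The share was 14.2 percentage points higher in MS than in WI and 11.3 points lower in MR than in MS (difference -11.3), with adjusted exact permutation p-values of 0.0741 for both. Without MS replicate 1 these differences were 17.7 and -14.8 points, each with an adjusted exact permutation p of 0.0159, and without MS replicate 2 they were 12.4 and -9.51 points (adjusted exact permutation p = 0.111 and 0.116). WI was 6.76 points above CO (adjusted exact permutation p = 0.0741) and MR was 2.89 points above WI (adjusted exact permutation p = 0.341). In all, 31 genes were among the first 10 of at least 1 library, and 30 of them were members. CPIJ040092 and CPIJ016836 were in that set in all 20 libraries, CPIJ040079 in 17 and CPIJ008101 in 16.

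**Figure D2:**
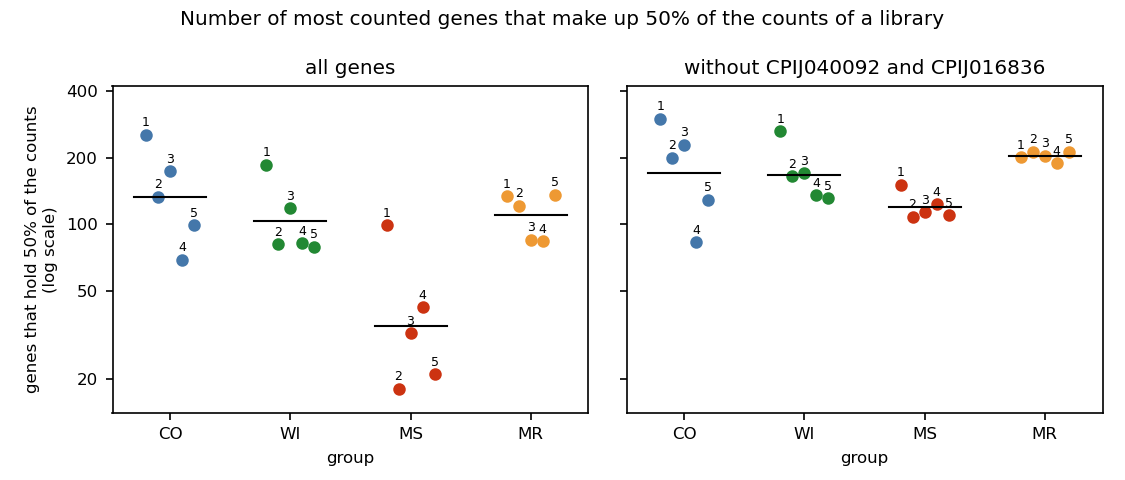
Points give the number of most counted genes that together hold 50% of a library's counts (y axis, log scale), with the replicate number beside each, for the 4 groups (x axis), with all genes on the left and without CPIJ040092 and CPIJ016836 on the right; lines are means of log2 values. MS replicates 2 to 5 lie between 18 and 42 on the left, and MS replicate 1 lies at 99.

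Membership itself did not rest on a single group for most members. Of the 164, 89 had a group mean of at least 1000 CPM in all 4 groups. The number at that level was 115 in CO, 141 in WI, 137 in MS and 141 in MR. Recomputed without the MS libraries, the mean over the remaining libraries kept 145 members, and without CO, WI or MR it kept 159, 156 and 160. The 19 lost without MS include CPIJ003588, CPIJ004713, CPIJ006159, CPIJ006160, CPIJ008366, CPIJ009331 and CPIJ013782. That these genes are high in MS follows in part from the rule that made them members. Just inside the threshold were CPIJ015029 at 1006 CPM, CPIJ004713 at 1006 and CPIJ009672 at 1005, and just outside were CPIJ005743 at 978, CPIJ007471 at 977 and CPIJ011929 at 977.

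The SD of log2 CPM within groups had a median of 0.56 over the members and 0.59 over all tested genes. The upper quartile was 0.67 over the members and 1.07 over all tested genes. The median over the members was 0.78 in CO, 0.53 in WI, 0.34 in MS and 0.38 in MR. CPIJ001132 (0.20), CPIJ014663 (0.24) and CPIJ003009 (0.25) varied least, and CPIJ005273 (2.50), CPIJ000835 (2.2) and CPIJ015368 (1.73) varied most.

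Groups were compared with edgeR's quasi-likelihood test, fitting the 20 libraries and 17499 genes together, and a gene was called at a Benjamini-Hochberg FDR under 0.05. Members were chosen on the mean of the same libraries, so a member could pass through 1 high group, and the counts below are set beside the percentage called among all tested genes without reading more from them. MS versus WI and MR versus WI share the WI libraries, and MR versus MS shares libraries with both. With scaling by library size alone, the median over tested genes shifted from -0.02 to -0.35 (log2 fold change) in WI versus CO, from 0.04 to 0.62 in MR versus MS, from -0.07 to -0.58 in MS versus WI and from -0.01 to 0.06 in MR versus WI. All changes below are relative to the TMM scaling.

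Between the unexposed groups, 23 members were up-regulated in WI relative to CO (14% of members, 6.3% of all tested genes) and 0 were down-regulated (4.15% of all tested genes), where 10.4% of tested genes were called in either direction. At an unadjusted p under 0.05, 5 members were lower in WI, DESeq2 and edgeR's likelihood ratio test each called 3, and library size alone gave 25 higher and 6 lower. In 13 members every WI library was above every CO library (4.27% of all tested genes), and in 0 every one was below (2.38%). The median log2 fold change of the members was 0.25, against -0.02 for all tested genes. A fit that blocked on the replicate numbers, which the sample titles do not describe as pairs, called 44 members higher and 3 lower. Up-regulated members numbered 13 when CO replicate 1, CO replicate 3 or WI replicate 2 was left out, 15 for CO replicate 5, 39 for CO replicate 4 and 43 for CO replicate 2. Down-regulated members then numbered 2 for CO replicate 1 or 2, 1 for CO replicate 3, WI replicate 1 or WI replicate 2, and 0 for the other libraries. Fitting these 10 libraries by themselves gave 11 up-regulated members.

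Between the exposed groups, 7 members were higher in MR than in MS (4.27% of members, 2.76% of all tested genes) and 26 were lower (15.9% of members, 4.18% of all tested genes), where 6.94% of tested genes were called in either direction. Every MR library was above every MS library in 11 members (6.63% of all tested genes) and below in 37 (6.86%). The median of the members was 0.00 when rounded, against 0.04 for all tested genes. With library size alone, 56 members were called higher and 15 lower, so the balance of directions in MR versus MS depended on the scaling. Without MS replicate 1 the counts were 7 and 27.

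The largest number of calls fell between MS and WI, where 41 members were higher in MS (25% of members, 12.3% of all tested genes) and 49 were lower (29.9% of members, 11% of all tested genes), where 23.3% of tested genes were called in either direction. The MS and WI libraries did not overlap in 35 members that were higher in MS (11.5% of all tested genes) and in 32 that were lower (9.75%). The median log2 fold change of the members was -0.66, against -0.07 for all tested genes, and single members ranged from -9.47 to 8.90. Library size alone gave 36 higher and 95 lower members. Without MS replicate 1 there were 45 higher and 34 lower.

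Between MR and WI, 23 members were higher in MR (14% of members, 4.95% of all tested genes) and 17 were lower (10.4% of members, 3.99% of all tested genes), where 8.94% of tested genes were called in either direction. Library size alone gave 24 higher and 30 lower. In 21 members every MR library was above every WI library (6.39% of all tested genes), and in 21 every one was below (5.63%). The median of the members was -0.66, against -0.01 for all tested genes. Lower members numbered 4 when WI replicate 5 was left out, 5 for MR replicate 2, 6 for WI replicate 4, 7 for MR replicate 3 or 5, 8 for WI replicate 2, 10 for MR replicate 4, 11 for MR replicate 1, 26 for WI replicate 1 and 36 for CO replicate 4.

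**Figure D3:**
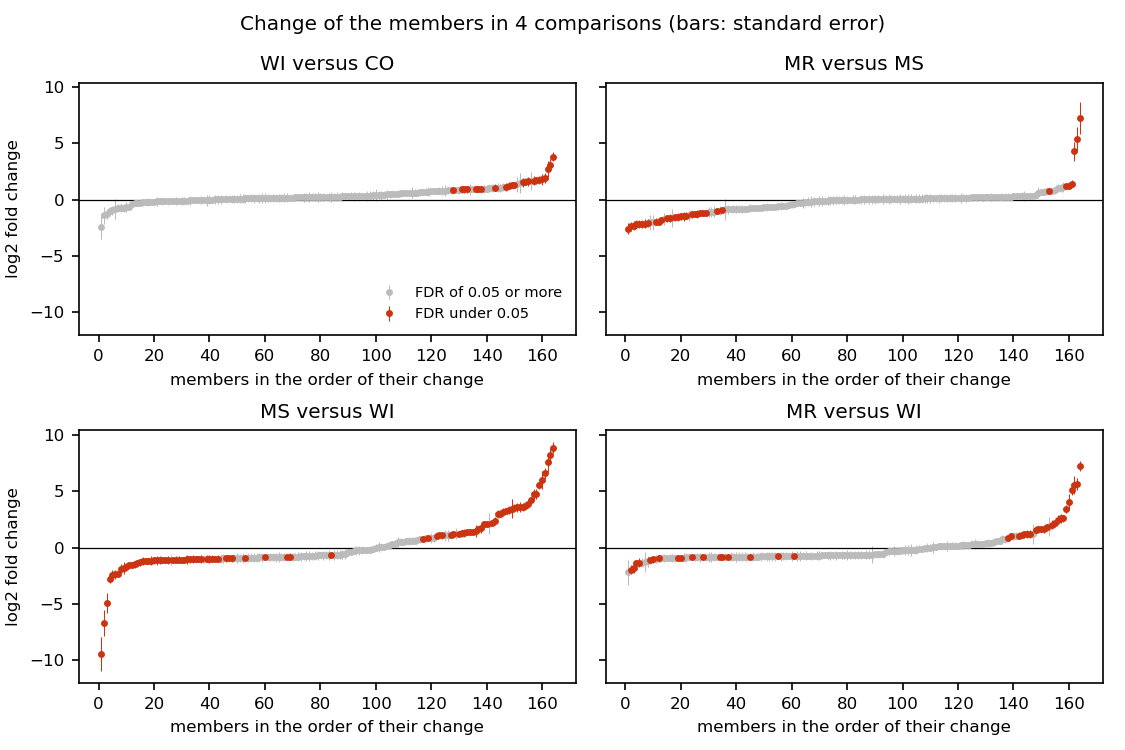
In each of 4 comparisons the 164 members stand in the order of their log2 fold change (y axis, with standard errors as bars), and members with an FDR under 0.05 are red. Changes reach from -9.47 to 8.90 in MS versus WI, whereas in WI versus CO 23 called members all lie above 0.

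CPIJ040092, without a name, was the most counted gene in 19 of 20 libraries, and CPIJ016836 was the most counted in MS replicate 5. CPIJ040092 had 17738, 83286, 34516, 92148 and 48254 CPM in the CO libraries and 45673, 144190, 62347, 108270 and 123330 in the WI libraries. Its values were 66010, 384110, 213890, 230900 and 240840 CPM in the MS libraries and 80504, 99699, 140400, 133430 and 71927 in the MR libraries. MS replicate 1 lay within the range of the WI libraries, and the other MS libraries were above all of them. The gene did not pass the threshold between MS and WI (log2 fold change 1.23 ± 0.46, FDR = 0.059) but did without MS replicate 1 (1.47, FDR = 0.0209). It also passed without WI replicate 2, CO replicate 1 or CO replicate 4, with FDRs of 0.049, 0.0415 and 0.0467. With the replicate block its log2 fold change between MS and WI was 1.17 (FDR = 0.0121). No other comparison of CPIJ040092 passed, with an FDR of 0.282 between WI and CO, 0.164 between MR and MS and 0.926 between MR and WI.

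CPIJ016836 had 8438, 37087, 11405, 24534 and 24205 CPM in the CO libraries and 35923, 142010, 35882, 80464 and 71655 in the WI libraries. Its values were 40961, 195870, 156220, 128370 and 264890 CPM in the MS libraries and 46177, 57704, 109830, 112860 and 50162 in the MR libraries. CPIJ016836 was 3.46-fold higher in WI than in CO (log2 fold change 1.79 ± 0.51, FDR = 0.0262), although WI replicates 1 and 3 were below CO replicate 2. This call was lost without CO replicate 1, CO replicate 3, WI replicate 2 or WI replicate 4, with FDRs from 0.0518 to 0.0943. Between MS and WI its log2 fold change was 1.10 ± 0.50 (FDR = 0.115), which became 1.35 (FDR = 0.0457) without MS replicate 1 and 1.49 (FDR = 0.0445) without WI replicate 2. With the replicate block it was 1.09 (FDR = 0.0397).

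Genes with terms for mitochondrial energy metabolism formed the largest annotated group, with 14 members, which include subunits of the respiratory chain and ATP synthase, an inner membrane transporter and an enzyme of the tricarboxylic acid cycle. Their median log2 fold change was 0.91 in WI versus CO and 1.05 in MS versus WI. In WI versus CO, 7 of the 14 passed the test, all higher in WI, and with the replicate block 6 more did (CPIJ008101, CPIJ017217, CPIJ001563, CPIJ004829, CPIJ012335 and CPIJ004713, FDR 0.00433 to 0.0237). In MS versus WI, 10 were higher in MS and 0 lower, and in MR versus MS, 2 were lower in MR. With the replicate block CPIJ002271, CPIJ005941, CPIJ001563, CPIJ014410, CPIJ012335 and CPIJ017217 were also lower in MR than in MS (FDR 0.0116 to 0.0365). Of all 72 tested genes with such terms, 34 were higher and 1 lower in WI than in CO, and 39 were higher and 1 lower in MS than in WI, in a list that the study built from genes it called in these libraries. Among all tested genes, 6.3% were higher and 4.15% lower in WI versus CO, and 12.3% and 11% in MS versus WI. In MR versus MS the percentages were 2.76% and 4.18%.

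CPIJ040079, which carries the term cytochrome c oxidase activity, the last complex of the respiratory chain, had the third highest mean. CPIJ040079 had 2567, 11026, 3635, 7197 and 6891 CPM in the CO libraries and 11320, 42615, 13702, 25327 and 24862 in the WI libraries. Its values were 11898, 55665, 41910, 37813 and 66377 CPM in the MS libraries and 13971, 17029, 26470, 28444 and 14535 in the MR libraries. Every WI library was above every CO library (log2 fold change 1.91 ± 0.46, FDR = 0.0106), and leaving out any 1 library did not end this call. The MS libraries overlapped those of WI, with MS replicates 1, 3 and 4 below WI replicate 2 (log2 fold change 0.86 ± 0.45, FDR = 0.18). The other members with this term, CPIJ008200 and CPIJ004829, were counted less. CPIJ008200 had 885 ± 427 CPM in CO, 1666 ± 431 in WI, 2981 ± 676 in MS and 1826 ± 102 in MR. CPIJ004829 had 685 ± 367 CPM in CO, 1303 ± 383 in WI, 2292 ± 529.9 in MS and 1433 ± 199.9 in MR and did not pass in edgeR's fit of the 20 libraries with TMM scaling and no block, but was higher in WI than in CO with library size alone (log2 fold change 0.70, FDR = 0.0155). CPIJ008200 was higher in WI than in CO (0.91 ± 0.29, FDR = 0.0468) and in MS than in WI (0.84 ± 0.29, FDR = 0.0391), calls that were lost in 16 and 7 of 20 fits that left out 1 library, with FDRs up to 0.125 (without WI replicate 2) and 0.0957 (without WI replicate 1), and the second was also lost with library size alone (FDR = 0.135).

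The 6 members described next carried the term for the proton-transporting ATP synthase complex, the enzyme that makes ATP from the proton gradient. Their summed level was 9786 ± 3862 CPM in CO, 17554 ± 3776 in WI, 32297 ± 3585 in MS and 20006 ± 3217 in MR. The lowest MS library, at 28852 CPM, was above the highest library of the other groups, and without MS replicate 1 the MS mean was 33158. CPIJ008101 had 3443, 8797, 3759.7, 6945 and 4714 CPM in the CO libraries and 10440, 12741, 7921, 8418 and 7661 in the WI libraries. Its values were 15746, 17680, 15840, 13478 and 14600 CPM in the MS libraries and 13006, 10884, 8721, 7820 and 9693 in the MR libraries. CPIJ008101 did not pass in MS versus WI (log2 fold change 0.71 ± 0.27, FDR = 0.0586) although every MS library was above every WI library, and passed without CO replicate 1, 2 or 4 or WI replicate 2 (FDR down to 0.0342). Between WI and CO it passed with the block and also without CO replicate 2 or CO replicate 4. CPIJ002271 was higher in WI than in CO (0.95 ± 0.27, FDR = 0.0278) and in MS than in WI (1.12 ± 0.27, FDR = 0.00455), and the first call was lost without CO replicate 1, 3 or 5 or WI replicate 1 or 2, with FDRs up to 0.0894. With library size alone neither call of CPIJ002271 held (FDR = 0.101 and 0.0914). Also higher in MS than in WI were CPIJ001563 (1.03 ± 0.26, FDR = 0.00533), CPIJ012335 (1.25 ± 0.35, FDR = 0.0129) and CPIJ004713 (1.31 ± 0.36, FDR = 0.0108). CPIJ006067 was higher in WI than in CO (0.91 ± 0.29, FDR = 0.0464) but lost that call in 16 of 20 fits that left out 1 library, with an FDR up to 0.121 without WI replicate 2.

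The group also held members with terms for the electron transport chain and the matrix. CPIJ019024, with terms for the respirasome and heme binding, had 1024 ± 461 CPM in CO, 1923 ± 447 in WI, 8161 ± 1599 in MS and 4098 ± 479 in MR. It was 4.24-fold higher in MS than in WI (FDR = 1.48e-05) and 2.13-fold higher in MR than in WI (FDR = 0.0165). It was also lower in MR than in MS (-0.99 ± 0.28, FDR = 0.0335), a call lost in 8 of 20 fits that left out 1 library (FDR up to 0.0839, without MR replicate 5) and with library size alone (log2 fold change -0.35, FDR = 0.126). CPIJ014410, annotated with heme binding in the inner membrane, and CPIJ017217, with an iron-sulfur cluster term, were higher in MS than in WI (1.08 ± 0.23, FDR = 0.00186 and 0.77 ± 0.27, FDR = 0.0444). The call of CPIJ017217 was lost in 13 of 20 fits that left out 1 library, with an FDR up to 0.109 without MS replicate 2, and with library size alone (FDR = 0.263). CPIJ014410 and CPIJ019024 were also higher in WI than in CO (0.84 ± 0.23, FDR = 0.0242 and 0.91 ± 0.28, FDR = 0.0407), and these calls were lost in 4 and 13 of 20 such fits, with FDRs up to 0.0802 (without WI replicate 2) and 0.106 (without CO replicate 1). Library size alone also ended that of CPIJ014410 (FDR = 0.0702).

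CPIJ005941, annotated as a transporter of the mitochondrial inner membrane, had 593, 2301, 823, 909 and 797 CPM in CO, 4485, 4885, 2242, 2489 and 1784 in WI, 10654, 13374, 10345, 8317 and 8939 in MS and 8735, 6658, 3966, 2991 and 3756 in MR. It rose 2.93-fold from CO to WI (FDR = 0.0126) and 3.25-fold from WI to MS (FDR = 0.0026), and the MS libraries were all above those of WI. CPIJ008366, with a term for malate dehydrogenase of the tricarboxylic acid cycle, had 398 ± 132 CPM in CO, 602 ± 145 in WI, 2708 ± 598 in MS and 1203 ± 344 in MR. It was 4.5-fold higher in MS than in WI (FDR = 3.92e-06), lower in MR than in MS (-1.17 ± 0.26, FDR = 0.00855, but FDR = 0.0783 with library size alone) and higher in MR than in WI (1.00 ± 0.26, FDR = 0.0187). The last call was lost without WI replicate 3, MR replicate 1 or MR replicate 2, with FDRs up to 0.0608.

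Glycolysis, the breakdown of glucose to pyruvate, was the term of 4 members, and 3 of them were higher in MS than in WI. Their summed level was 7341 ± 2471 CPM in CO, 12244 ± 2338 in WI, 20404 ± 2888 in MS and 11458 ± 2131 in MR, and the MS range of 16514 to 24181 CPM did not overlap any other group. Without MS replicate 1 the MS mean was 21376 CPM. CPIJ005597 (1.35 ± 0.26, FDR = 0.000546), CPIJ000948 (1.61 ± 0.23, FDR = 2.86e-05) and CPIJ008289 (1.39 ± 0.27, FDR = 0.000712) were the members that rose. CPIJ009571, which had the highest mean of the group, had 4312 ± 1882 CPM in CO, 7124 ± 1304 in WI, 6657 ± 1260.2 in MS and 4543 ± 229.6 in MR and did not pass in this comparison (FDR = 0.828). CPIJ000948 and CPIJ008289 were lower in MR than in MS (-1.19 ± 0.23, FDR = 0.00291 and -1.28 ± 0.27, FDR = 0.00553), and with library size alone neither passed (FDR = 0.066 and 0.105). In WI versus CO only CPIJ005597 of the 4 was called (0.96 ± 0.26, FDR = 0.0193), a call lost without CO replicate 1, CO replicate 3 or WI replicate 2 (FDR up to 0.0658) and with library size alone (FDR = 0.067), and CPIJ009571 passed with the replicate block (log2 fold change 0.78, FDR = 0.0139) or without CO replicate 2. Over all 34 tested genes with such terms, 19 were higher and 3 lower in MS than in WI (12.3% and 11% of all tested genes). That list too holds only genes that the study called in these libraries.

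Other carbohydrate and lipid terms were carried by 4 members, of which 3 were called higher in WI than in CO and 1 higher in MR than in WI. Over the 68 tested genes of the carbohydrate list, 30 were higher and 14 lower in WI than in CO and 23 were higher and 20 lower in MS than in WI, and over the 44 of the lipid list the counts were 9 and 7 in WI versus CO and 18 and 10 in MS versus WI. Both lists hold only genes that the study called in these libraries. Among all tested genes, 6.3% were higher and 4.15% lower in WI versus CO, and 12.3% and 11% in MS versus WI. In MR versus WI, 4.95% were higher. CPIJ004776, with a glycogen term, was higher in WI (1.13 ± 0.32, FDR = 0.028), as was CPIJ000232, with a glycerol-3-phosphate term (0.95 ± 0.27, FDR = 0.0245). The first call was lost without CO replicate 1, 3 or 5 or WI replicate 1 or 2 (FDR up to 0.0872), the second without CO replicate 1, 3 or 5 or WI replicate 2 (FDR up to 0.0801), and both with library size alone (FDR = 0.134 and 0.0858). The fatty acid synthase gene CPIJ005595, whose enzyme builds long-chain fatty acids, had 679.9, 801, 579, 353 and 621 CPM in CO and 2015, 1739.9, 1088, 1119.7 and 1427 in WI. It was 2.43-fold higher in WI (log2 fold change 1.28 ± 0.27, FDR = 0.00349), and its call was kept in all 20 fits that left out 1 library but not with library size alone (log2 fold change 0.93, FDR = 0.0696). The gene had 1239, 1261, 1333, 1346 and 1279.7 CPM in MS and 2498, 3491, 2093, 1631 and 1359 in MR, and neither MS nor MR passed against WI (FDR = 0.647 and 0.193). CPIJ013748, with a lipid metabolism term, was higher in MR than in WI (0.87 ± 0.25, FDR = 0.0287), a call lost without WI replicate 3, 4 or 5 or MR replicate 2 or 3 (FDR up to 0.0808).

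The myofibril is the contractile fibre of muscle, and 3 of the 4 members with this term were called higher in MS than in WI (12.3% of all tested genes). The 4 summed to 2428 ± 1096 CPM in CO, 3837 ± 1309 in WI, 36471 ± 3684 in MS and 9887 ± 5898 in MR. The lowest MS library, at 32918 CPM, was above the highest MR library, at 16118, and without MS replicate 1 the MS mean was 37011. CPIJ000849 had 62.3, 173, 71.3, 34.8 and 65.2 CPM in the CO libraries and 277, 404, 114, 130.0 and 111 in the WI libraries. Its values were 16628, 15511, 14657, 10540 and 10119 CPM in the MS libraries and 7063, 6836, 544, 226 and 2275 in the MR libraries. CPIJ000849, also annotated with the myosin filament, was 65.1-fold higher in MS than in WI (log2 fold change 6.03 ± 0.80, FDR = 8.79e-06) and 16.4-fold higher in MR than in WI (FDR = 0.00095). The MR libraries ranged from 226 CPM in replicate 4 to 7063 in replicate 1, and the difference between MR and MS did not pass (FDR = 0.0773). With the replicate block that difference passed (log2 fold change -2.63, FDR = 0.00424).

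CPIJ014296 and CPIJ009743 carried the same myofibril term and varied less between pools. CPIJ014296 had 967 ± 486 CPM in CO, 1335 ± 337 in WI, 10828 ± 2319 in MS and 2801 ± 754 in MR, and CPIJ009743 had 585 ± 224 CPM in CO, 794 ± 176 in WI, 8949.9 ± 1343 in MS and 2474 ± 1086 in MR. They were 8.11-fold and 11.3-fold higher in MS than in WI (FDR = 1.19e-06 and 1.73e-07), and both were lower in MR than in MS (-1.95 ± 0.33, FDR = 0.000818 and -1.86 ± 0.32, FDR = 0.00104). In MR versus WI, CPIJ009743 was higher (1.64 ± 0.32, FDR = 0.00186), and CPIJ014296 was higher in a call that 10 of 20 fits that left out 1 library lost (1.07 ± 0.32, FDR = 0.0387, up to 0.095 without MR replicate 1). The last myofibril member, CPIJ000848, also with a myosin filament term, had 794 ± 554 CPM in CO, 1501 ± 854 in WI, 3202 ± 663 in MS and 1223 ± 837 in MR and passed in none of the 4 comparisons, with FDRs of 0.102 in MS versus WI and 0.0862 in MR versus MS, although with the replicate block it was higher in WI than in CO (log2 fold change 0.95, FDR = 0.0266). The block also called it higher in MS than in WI (1.29, FDR = 0.00219) and lower in MR than in MS (-1.68, FDR = 0.000988). CPIJ004628, annotated with actin filament binding alone, went the other way and was lower in MS than in WI (-1.71 ± 0.35, FDR = 0.000953).

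The term for structural constituents of the cuticle, the exoskeleton of the insect, was carried by 2 members, which were counted little in unexposed females. Both were members only through the MS libraries, and other cuticle genes were not examined for their level. The CPIJ009331 and CPIJ013782 genes, which carry this term, summed to 251 ± 126 CPM in CO, 307 ± 130 in WI, 9696 ± 1428 in MS (9796 without MS replicate 1) and 3418 ± 1418 in MR. CPIJ009331 had 88.2, 44.7, 112, 276 and 167 CPM in the CO libraries and 57.5, 50, 102, 57.9 and 86.1 in the WI libraries. Its values were 6237, 5173, 7132, 8175 and 7538 CPM in the MS libraries and 3580.4, 2988, 1687, 870.4 and 3101 in the MR libraries. No MS or MR library overlapped the unexposed groups, and CPIJ009331 was 96.9-fold higher in MS than in WI (log2 fold change 6.60 ± 0.51, FDR = 8.15e-09) and 34.6-fold higher in MR than in WI (FDR = 7.2e-07). CPIJ013782 was 12-fold and 4.11-fold higher in the same comparisons (FDR = 2.22e-06 and 0.00206). Both were lower in MR than in MS (-1.49 ± 0.40, FDR = 0.0279 and -1.55 ± 0.39, FDR = 0.019), calls lost without MS replicate 4, MR replicate 3 or MR replicate 4 for the first (FDR up to 0.0759) and without MR replicate 3 or 4 for the second (FDR up to 0.0599), and for both with library size alone (FDR = 0.132 and 0.0676). CPIJ004536, with chitin binding and extracellular region terms, was lower in MS than in WI (-1.49 ± 0.31, FDR = 0.00109) and higher in MR than in MS (1.25 ± 0.30, FDR = 0.014). Of 53 tested genes in the cuticle and chitin lists, 51 were higher and 1 lower in MS than in WI, and 42 were higher and 0 lower in MR than in WI. Among all tested genes, 12.3% were higher and 11% lower in MS than in WI, and 4.95% and 3.99% in MR versus WI. The lists hold only genes that the study called in these libraries, so the counts are not evidence of enrichment.

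Peptidases cut proteins, and in adult mosquitoes those of the midgut are well known for the digestion of a meal. CPIJ000835 and CPIJ005273, both annotated with proteolysis and peptidase activity, showed the widest spread of all members. CPIJ005273 had 4272, 26.5, 4078, 18117 and 7820.2 CPM in the CO libraries and 378, 264, 2426, 1658 and 1708 in the WI libraries. Its values were 0.893, 0.0239, 0.11, 7.62 and 0.394 CPM in the MS libraries and 134, 169, 415, 418 and 254 in the MR libraries. CO replicate 2 was below all other CO and WI libraries, and MS replicate 2 held 2 counts of this gene in the whole library. CPIJ005273 was lower in MS than in WI (log2 fold change -9.47 ± 1.53, FDR = 9.14e-05) and higher in MR than in MS (log2 fold change 7.26 ± 1.40, FDR = 0.00257), and the groups did not overlap in either comparison. Without MS replicate 4, the highest of its group, these values were -11.77 and 9.55, so the size of the change depended on that library.

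CPIJ000835 had 4694, 24.7, 5263, 19650 and 10536 CPM in the CO libraries and 2012, 815, 6330.1, 7437 and 6003 in the WI libraries. Its values were 25.7, 12.7, 17.5, 138 and 23.3 CPM in the MS libraries and 1539, 557, 2312, 3060.4 and 1834 in the MR libraries. CO replicate 2 was again the lowest of the unexposed libraries. CPIJ000835 was 104-fold lower in MS than in WI (log2 fold change -6.70 ± 1.13, FDR = 0.00015) and 42.9-fold higher in MR than in MS (log2 fold change 5.42 ± 1.07, FDR = 0.00301), and without MS replicate 4 the log2 fold changes were -7.80 and 6.52. Neither peptidase passed between WI and CO (FDR = 0.613 and 0.173) or between MR and WI (FDR = 0.458 and 0.25).

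CPIJ015368, without a name, had a similar order of groups. It had 7669.6, 124, 5963, 24871 and 13216 CPM in CO, 2280, 645, 5342, 5458 and 5892 in WI, 83.7, 85.7, 63.5, 308 and 104 in MS and 1543, 1645, 2828, 3898 and 2738 in MR, and here too CO replicate 2 and WI replicate 2 were the lowest of their groups. It was 30.4-fold lower in MS than in WI (FDR = 0.000232) and 19.6-fold higher in MR than in MS (FDR = 0.00291). A metallopeptidase member, CPIJ013398, did not share this pattern and was higher in MS than in WI (1.24 ± 0.24, FDR = 0.000612). It was lower in MR than in MS (-0.89 ± 0.24, FDR = 0.0243), a call lost without MS replicate 2 or MR replicate 3, 4 or 5 (FDR up to 0.0639) and with library size alone (FDR = 0.255), and with the block it was higher in WI than in CO (log2 fold change 0.69, FDR = 0.0174). Of 99 tested genes in the peptidase lists, 34 were higher and 23 lower in MS than in WI, in a list built by the study from genes it called in these libraries. Among all tested genes, 12.3% were higher and 11% lower in that comparison.

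Glutathione S-transferases join glutathione to reactive compounds and are among the enzymes studied in insecticide resistance. CPIJ006160, named as such, and CPIJ006159, with the same glutathione terms, were the members of this class. Both were members only through the MS libraries, so their high level in MS is not independent of the rule of membership. CPIJ006159 had 12, 27.1, 16.4, 34.1 and 20.2 CPM in the CO libraries and 51.7, 115, 49.5, 80.3 and 66.8 in the WI libraries. Its values were 1988, 3762, 3691, 4112 and 3697 CPM in the MS libraries and 1128, 874, 450.0, 448 and 903 in the MR libraries. CPIJ006159 was 47.5-fold higher in MS than in WI (log2 fold change 5.57 ± 0.39, FDR = 3.73e-09), 10.5-fold higher in MR than in WI (FDR = 3.14e-06) and 3.31-fold higher in WI than in CO (FDR = 0.00185). The 5 MS libraries were above every MR library, and the MR libraries were above every WI library (MR versus MS: log2 fold change -2.18 ± 0.34, FDR = 0.000442).

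CPIJ006160 had 72.1, 153, 90.8, 186 and 118 CPM in the CO libraries and 211, 258, 238, 248 and 260.4 in the WI libraries. Its values were 2076, 3564, 2947, 3389.5 and 2865 CPM in the MS libraries and 1222, 1113, 326, 349.8 and 832 in the MR libraries. CPIJ006160 was 12.2-fold higher in MS than in WI (log2 fold change 3.61 ± 0.36, FDR = 2.69e-07) and 3.16-fold higher in MR than in WI (FDR = 0.00267), and lower in MR than in MS (-1.95 ± 0.34, FDR = 0.00115). In WI every library was above every CO library, and the difference passed with the replicate block (log2 fold change 1.01, FDR = 0.0384) and not without it (0.97 ± 0.33, FDR = 0.0638). Reads of similar genes of this family could be shared between them in counting. Of 116 tested genes in the detoxification lists, 23 were higher and 42 lower in MS than in WI, and that list too holds only genes that the study called. Among all tested genes, 12.3% were higher and 11% lower in that comparison.

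**Figure D4:**
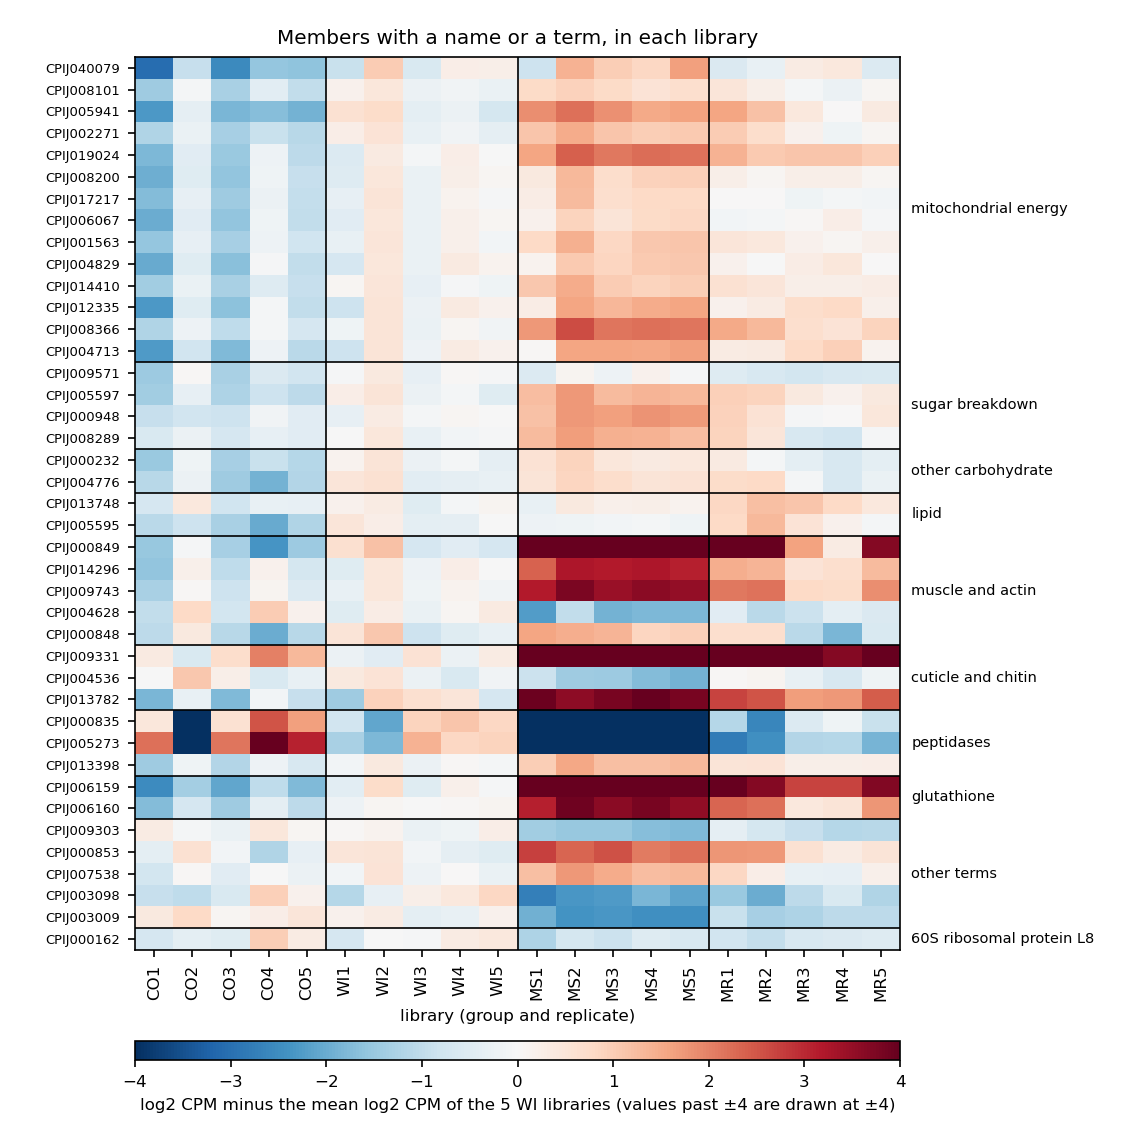
Each row is 1 of the 41 members with a name or a term, each column 1 of the 20 libraries, and colour gives log2 CPM minus the mean of the 5 WI libraries, with colours saturated beyond a difference of 4 in either direction. Rows with the myofibril, structural cuticle and glutathione terms are red in all 5 MS columns, and the rows of CPIJ000835 and CPIJ005273 are blue there and in CO replicate 2. CPIJ004628 in the muscle block and CPIJ004536 in the cuticle block were lower in MS than in WI.

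Members with ribosome and RNA terms were lower in MS than in WI. CPIJ000162 had 2061, 2540, 2372, 6531 and 4119.7 CPM in the CO libraries and 2063, 3282, 3172, 4105 and 4405 in the WI libraries. Its values were 1391, 2017, 1826, 2311 and 2125 CPM in the MS libraries and 1925, 1705, 2114, 2194 and 2287 in the MR libraries. The ribosomal protein gene was lower in MS than in WI (log2 fold change -0.82 ± 0.29, FDR = 0.0457), although MS and WI overlapped, and this call was lost in 15 of 20 fits that left out 1 library, MS replicate 1 among them (FDR = 0.103), with an FDR up to 0.112 without WI replicate 5. Between MR and WI its log2 fold change was -0.74 ± 0.29 (FDR = 0.126), and with the replicate block it was -0.68 (FDR = 0.0326).

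Many members without annotation varied together with CPIJ000162, an observation made after their values were seen. Over the 20 libraries, 71 of the other 163 members had a Pearson correlation of at least 0.9 with it in their deviations from the group means, as a description of points that share libraries and scaling, and with library size alone 16 of these did. Among all tested genes 379 reached that value. The 71 had median log2 fold changes of 0.13 in WI versus CO, 0.10 in MR versus MS, -0.90 in MS versus WI and -0.80 in MR versus WI, and of -0.08, 0.76, -1.42 and -0.67 with library size alone, so the value in MR versus MS depended most on the scaling. Together with CPIJ000162 they took 22.4% ± 7.20 of the counts in CO, 20.5% ± 5.38 in WI, 7.71% ± 0.74 in MS and 13.0% ± 2.41 in MR, and the highest MS library, at 8.88%, was below the lowest library of any other group. Of the 71, 29 were called lower and 0 higher in MS than in WI, and 7 lower and 0 higher in MR than in WI, where 11% and 3.99% of all tested genes were called lower. These members were chosen by their likeness in the same libraries, so nothing more is read from the counts.

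CPIJ009303, with an RNA binding term, had 9301, 7019, 6265, 10281 and 7831 CPM in CO, 7717, 8208, 6272, 6593 and 8926 in WI, 2859.7, 2617, 2589, 2284 and 2176 in MS and 5784, 4558, 3931, 3424 and 3450 in MR. It was 3.01-fold lower in MS than in WI (FDR = 1.74e-05) with no overlap of libraries. Its values between MR and WI (-0.83 ± 0.22, FDR = 0.0188) and between MR and MS (0.76 ± 0.22, FDR = 0.0388) also passed, and these calls were lost in 4 and 9 of 20 fits that left out 1 library (FDR up to 0.0573, without MR replicate 5, and 0.122, without MS replicate 5). Library size alone also ended its call in MR versus WI (FDR = 0.0714).

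CPIJ003009 and CPIJ003098 carry the term nucleolus, the site of ribosome assembly. CPIJ003009 had 2073 ± 386 CPM in CO, 1575 ± 334 in WI, 313 ± 52.3 in MS and 717 ± 85.5 in MR and was 5.03-fold lower in MS than in WI (FDR = 8.01e-08), 2.19-fold lower in MR than in WI (FDR = 0.000957) and 2.29-fold higher in MR than in MS (FDR = 0.000987). All 3 calls were kept in each of the 20 fits that left out 1 library. CPIJ003098, also annotated with ribosome biogenesis, had 1974 ± 1262 CPM in CO, 2293 ± 1042 in WI, 445 ± 100.1 in MS and 906 ± 315 in MR and was 5.16-fold lower in MS than in WI (FDR = 0.000145). It was lower in MR than in WI (-1.34 ± 0.39, FDR = 0.0316), a call lost in 7 of 20 such fits (FDR up to 0.0941, without WI replicate 5). The summed level of both genes was 3867 ± 987 CPM in WI and 758 ± 64.4 in MS (768 without MS replicate 1).

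The largest called rises of members in MS versus WI were those of genes without a name or term. CPIJ003470 had 0.664, 2.26, 0.812, 2.09 and 1.21 CPM in the CO libraries and 11.1, 33.3, 14.3, 23.9 and 16.7 in the WI libraries. Its values were 5314, 10486, 10263, 10914 and 10575 CPM in the MS libraries and 3791, 4051, 2598, 1782 and 2913 in the MR libraries. CPIJ003470 was 14.1-fold higher in WI than in CO (log2 fold change 3.82 ± 0.40, FDR = 1.94e-06), 479-fold higher in MS than in WI (log2 fold change 8.90 ± 0.50, FDR = 2e-10) and 153-fold higher in MR than in WI (FDR = 3.06e-09). Each group stood clear of the others, in the order CO, WI, MR and MS, and MR was lower than MS (-1.65 ± 0.37, FDR = 0.00775).

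CPIJ003588 had 2, 13, 3.4, 7.81 and 4.56 CPM in the CO libraries and 28.6, 103, 34.1, 56.8 and 42.5 in the WI libraries. Its values were 7523, 19405, 16315, 17288 and 17111 CPM in the MS libraries and 3566, 3865, 1741, 1684 and 2201 in the MR libraries. The order of groups was the same, and no libraries of neighbouring groups overlapped. CPIJ003588 was 8.61-fold higher in WI than in CO (FDR = 0.000167), 293-fold higher in MS than in WI (FDR = 4.46e-09), 49.3-fold higher in MR than in WI (FDR = 7.82e-07) and 5.95-fold lower in MR than in MS (FDR = 0.00144).

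CPIJ012572 had 7.04, 41.9, 11.4, 7.94 and 4.85 CPM in the CO libraries and 126, 185, 40, 81.6 and 54.8 in the WI libraries. Its values were 16226, 27067, 17743, 17758 and 15296 CPM in the MS libraries and 9618, 7865, 949, 521 and 4119 in the MR libraries. CPIJ012572 was 193-fold higher in MS than in WI (log2 fold change 7.59 ± 0.87, FDR = 1.27e-06) and 47.3-fold higher in MR than in WI (FDR = 7.51e-05). The MR libraries spread from 521 to 9618 CPM, with replicates 3 and 4 lowest as in CPIJ000849, and MR versus MS did not pass (-2.03 ± 0.67, FDR = 0.0741), but did without CO replicate 2 (FDR = 0.0316) or MR replicate 1 (FDR = 0.0441). With the replicate block CPIJ012572 was lower in MR than in MS (-2.43, FDR = 0.00815). Its rise from CO to WI was 2.74 ± 0.69 on the log2 scale (FDR = 0.0142), and 3.64 without CO replicate 2, the highest CO library.

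**Figure D5:**
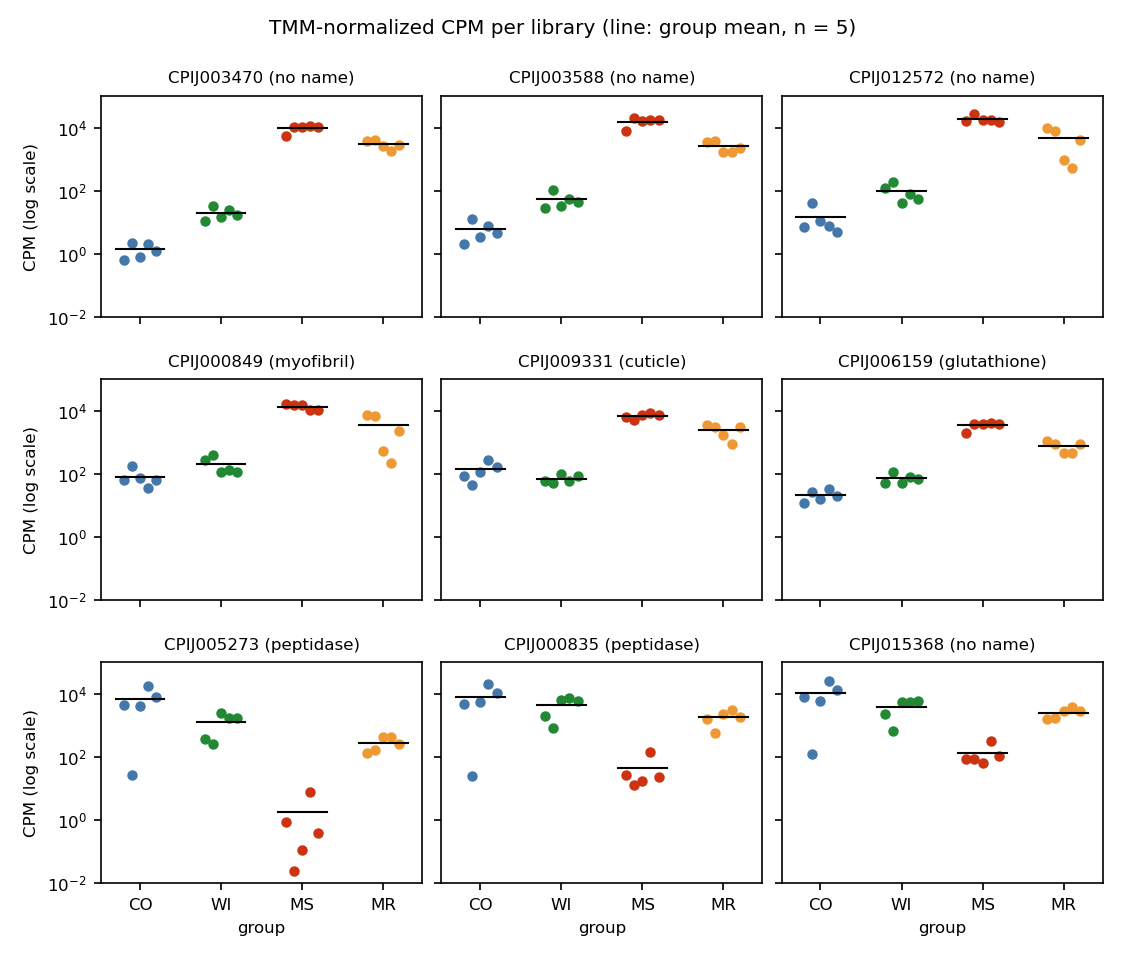
Points give TMM-normalized CPM (y axis, log scale) of 9 members in the 5 libraries of each group (x axis), with lines at the group means; the members were those with large changes between groups. The upper 6 genes are highest in MS and next in MR, whereas CPIJ005273, CPIJ000835 and CPIJ015368 are lowest in MS and low in CO replicate 2.

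Further unnamed members among the first 20 by mean CPM rose in MS as well. CPIJ008221 had 198, 529, 228, 412 and 239.9 CPM in CO, 643, 1636, 746, 1338 and 847 in WI, 19632, 30202, 30902, 33630 and 29825 in MS and 10573, 7065, 2766, 3040.1 and 5255 in MR. Its groups did not overlap in any of the 4 comparisons, and it was 27.7-fold higher in MS than in WI (FDR = 8.01e-08), 5.02-fold lower in MR than in MS (FDR = 0.000818), 5.51-fold higher in MR than in WI (FDR = 0.000282) and 3.24-fold higher in WI than in CO (FDR = 0.00667). CPIJ017123 had 1173 ± 557 CPM in CO, 2401 ± 770.1 in WI, 24324 ± 6122 in MS and 5399 ± 1936 in MR, CPIJ013259 had 1964 ± 1068 CPM in CO, 2199 ± 484 in WI, 19996 ± 5699 in MS and 4467 ± 1382 in MR and CPIJ019398 had 577 ± 282 CPM in CO, 1185 ± 386 in WI, 14128 ± 3499 in MS and 2714 ± 1135 in MR. These 3 were higher in MS than in WI, with log2 fold changes of 3.34 ± 0.38 (FDR = 1.12e-06), 3.18 ± 0.38 (FDR = 2.02e-06) and 3.58 ± 0.39 (FDR = 7.73e-07), and lower in MR than in MS, with -2.17 ± 0.36 (FDR = 0.000727), -2.16 ± 0.36 (FDR = 0.000783) and -2.38 ± 0.37 (FDR = 0.000479). In MR versus WI, CPIJ017123 (1.17 ± 0.35, FDR = 0.0376) and CPIJ019398 (1.20 ± 0.36, FDR = 0.0393) passed, each in a call that 10 of 20 fits that left out 1 library lost, with FDRs up to 0.0995 (without MR replicate 2) and 0.108 (without MR replicate 1). With the replicate block, CPIJ017123 (log2 fold change 1.07, FDR = 0.0153) and CPIJ019398 (log2 fold change 1.07, FDR = 0.0246) were also higher in WI than in CO. CPIJ013259 did not pass in MR versus WI (1.02 ± 0.35, FDR = 0.0731), but did under other settings, among them library size alone (log2 fold change 1.17, FDR = 0.00277) and leaving out CO replicate 1 or CO replicate 4.

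CPIJ001132 had the smallest spread within groups of all members. It had 7134, 7293, 5726, 7925 and 7413 CPM in CO, 6986, 8946, 5906, 6119 and 8447 in WI, 4548, 4381, 4011, 3815 and 3705 in MS and 6013, 5132, 4357, 4349 and 4552 in MR. MS was 1.78-fold below WI with no overlap (log2 fold change -0.83 ± 0.20, FDR = 0.00445), while WI and CO differed by 0.04 ± 0.20 on the log2 scale (FDR = 0.939). With library size alone MR was above MS for this gene (log2 fold change 0.83, FDR = 0.0164), which TMM scaling did not call (0.25 ± 0.20, FDR = 0.518).

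Among members that fell, the largest called changes from WI to MR were those of CPIJ015029, CPIJ007338, CPIJ007204 and CPIJ003098. CPIJ015029 had 1009.6 ± 677 CPM in CO, 1769 ± 708 in WI, 797 ± 227 in MS and 449.8 ± 104 in MR (-1.98 ± 0.39, FDR = 0.00206 in MR versus WI), and its call in MS versus WI (-1.15 ± 0.38, FDR = 0.0313) was lost in 6 of 20 fits that left out 1 library (FDR up to 0.101, without WI replicate 2, and 0.0746 without MS replicate 1). CPIJ007338 had 1926 ± 1329.6 CPM in CO, 3153 ± 1549 in WI, 855 ± 152 in MS and 878 ± 214 in MR, and it was lower than WI in MS (-1.88 ± 0.38, FDR = 0.000995) and in MR (-1.84 ± 0.38, FDR = 0.00322). With the replicate block CPIJ015029 and CPIJ007338 were higher in WI than in CO (FDR = 0.0338 and 0.0391). CPIJ007204 had 1459 ± 869.9 CPM in CO, 1769 ± 615 in WI, 252 ± 45.3 in MS and 667 ± 135 in MR and was 7.03-fold lower in MS than in WI (FDR = 1.69e-06), 2.65-fold lower in MR than in WI (FDR = 0.0056) and 2.65-fold higher in MR than in MS (FDR = 0.00787). Apart from CPIJ003098, none of these genes had a name or term.

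The remaining annotated members rose in MS. CPIJ000853, with an ATP binding term, was higher in MS than in WI (2.34 ± 0.36, FDR = 4.63e-05) and lower in MR than in MS (-1.27 ± 0.34, FDR = 0.0271), and the second call was lost without MS replicate 1, MS replicate 3 or MR replicate 3, 4 or 5 (FDR up to 0.0815, and 0.0556 without MS replicate 1) and with library size alone (FDR = 0.201). CPIJ007538, with terms for organophosphate and modified amino acid metabolism, where organophosphate stands for the cell's own phosphate esters, was higher in MS than in WI (1.37 ± 0.25, FDR = 0.000321) and lower in MR than in MS (-1.21 ± 0.25, FDR = 0.00429), the latter not with library size alone (FDR = 0.0859). For the 110 called values of named members, no alternative setting that was run turned the direction, and leaving out MS replicate 1 kept 42 of 44 calls in MS versus WI and 25 of 26 in MR versus MS. Over the described members, library size alone ended 6 calls and added 5 in WI versus CO, ended 9 and added 7 in MR versus MS, ended 3 and added 1 in MS versus WI and ended 1 and added 1 in MR versus WI. The 7 added in MR versus MS, all higher in MR, were CPIJ001132, CPIJ000162, CPIJ013748, CPIJ004628, CPIJ003098, CPIJ005595 and CPIJ014663, and the 1 added in MS versus WI was CPIJ009571 (log2 fold change -0.63, FDR = 0.0131).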

How the data were processed

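RNA of 20 pools of 10 females, 5 pools per group, was sequenced from libraries of a directional kit. According to the methods and the submitters' processing notes, the authors trimmed reads with Trim Galore 0.6.4, aligned them with STAR 2.7.3a to the CpipJ2.4 assembly, listed Picard 2.20.1 and GATK among their tools and counted genes with featureCounts 1.6.0. The authors deposited raw counts, which are whole numbers and were not normalized. Strand and multi-mapping options: not given in the sources used here. Genes with near-identical copies are therefore uncertain.

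Software was edgeR 4.0.16, with limma 3.58.1 and DESeq2 1.42.0, under R 4.3.3. The filterByExpr function (count of 10, total of 15) removed low genes, TMM scaled the libraries, and groups were compared by edgeR's quasi-likelihood F test. FDR denotes Benjamini-Hochberg adjusted p-values over every gene tested. CPM were not divided by gene length, and log2 CPM used a prior count of 2. The scripts were tested on simulated data. Library summaries were compared by exact two-sided permutation tests, adjusted over the 4 comparisons.

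Genes were described by a rule: the 10 highest mean CPM, the 4 largest called rises and falls per comparison, members that the study's tables name or list under a term, the 3 largest and smallest within-group SDs, and the 3 genes on each side of the threshold. The members and gene lists were chosen with earlier results of these data known, and any other gene was chosen after its values were seen. The reference gene table matched no identifier, and no sequence was used.

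Libraries with the same replicate number in WI and CO deviated together from their group means (Pearson r 0.308, 0.465, 0.233, 0.222 and 0.168 for replicates 1 to 5). Between WI and CO libraries with different numbers r ranged from -0.354 to 0.262, which holds the values of replicates 3, 4 and 5. The check therefore does not settle whether the numbers pair these libraries. Blocked values are given for WI versus CO where they change a call, and for part of the members in the other comparisons. There the block also added the following calls, whose values are not printed. In MR versus MS, CPIJ013748, CPIJ004628, CPIJ003098 and CPIJ005595 were higher in MR and CPIJ000232 was lower. In MS versus WI, CPIJ008101, CPIJ006067, CPIJ000232, CPIJ004829, CPIJ004776 and CPIJ009672 were higher in MS. In MR versus WI, CPIJ013259 and CPIJ000853 were higher in MR, and CPIJ001132 and CPIJ014663 were lower. Alternatives were other tests (DESeq2 and edgeR's likelihood ratio test), other scalings and filters, fits of 2 groups, the replicate block, other thresholds of membership, removal of the 2 most counted genes and leaving out each library in turn.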

Additional observations from a re-analysis of the deposited data

Results flagged for a closer look

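In 26 of 240 groups of 5 libraries (10.8%), the highest or lowest library of a described member stood apart, with a gap to the nearest other library over 0.71 of the range of the group (Dixon's critical value). Dixon's value corresponds to about 1 in 20 for independent groups of normal values. These groups share libraries, hold untransformed CPM and include genes chosen for a large spread, so the percentage is not compared with it. These were MS replicate 1 (11), CO replicate 2 (6), MS replicate 2 (5), MS replicate 4 (3) and WI replicate 2 (1). What sets these libraries apart was not tested.

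MS replicate 1 was below the other MS libraries in 10 of its 11. CPIJ008221 had 19632 CPM there and 29825 to 33630 in the others. CPIJ013259 had 9903 CPM there and 21152 to 23241 in the others. CPIJ019398 had 8068 CPM there and 14363 to 16829.6 in the others. CPIJ003588 had 7523 CPM there and 16315 to 19405 in the others. The 4 were higher in MS than in WI. CPIJ014296 had 6733 CPM there and 11284 to 12195 in the others. CPIJ003470 had 5314 CPM there and 10263 to 10914 in the others. CPIJ006159 had 1988 CPM there and 3691 to 4112 in the others. CPIJ004829 had 1382 CPM there and 2265 to 2625 in the others. CPIJ012335 had 1169 CPM there and 2402 to 2817 in the others. CPIJ004713 had 742 CPM there and 2109 to 2218 in the others. CPIJ003009 had 405 CPM there and 281 to 306 in the others. The last was above the others.

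CO replicate 2 was above the other CO libraries in its 6 members. CPIJ012572 had 41.9 CPM there and 4.85 to 11.4 in the others. CPIJ005941 had 2301 CPM there and 593 to 909 in the others. CPIJ000849 had 173 CPM there and 34.8 to 71.3 in the others. CPIJ007338 had 4208 CPM there and 712 to 1637 in the others. CPIJ000848 had 1760.1 CPM there and 335 to 645 in the others. CPIJ007204 had 2975 CPM there and 873 to 1369 in the others.

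MS replicate 2 was the highest MS library in CPIJ012572 at 27067 CPM (others 15296 to 17758), CPIJ002271 at 9306 (6566 to 7272), CPIJ005597 at 9084 (6365 to 7009), CPIJ014410 at 2982 (2003 to 2261) and CPIJ004628 at 1218 (508 to 693). MS replicate 4 was highest in 3 genes that were lower in MS than in WI, with 308 CPM of CPIJ015368 (others 63.5 to 104), 138 of CPIJ000835 (12.7 to 25.7) and 7.62 of CPIJ005273 (0.0239 to 0.893). WI replicate 2 had 1678 CPM of CPIJ007538 against 968 to 1171 in the other WI libraries.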

How the results depend on the processing

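Of 135 log2 fold changes of described members, 110 were called, 76 of these were called in every alternative run, and none of the 110 changed sign. The 3907 refitted values were 3593 on the same side of the threshold, 239 weaker, 58 stronger and 17 of opposite sign. For each change of a count given here the cause was not tested, except that a changed threshold of membership changes the number of members. Depth limited the members little, and the 5 pools per group set the precision.

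DESeq2 called 37 members higher and 3 lower in WI than in CO, 11 higher in MR than in MS and 31 lower in MR than in WI. The likelihood ratio test gave 35, 3 and, for lower in MR versus WI, 30. Library size alone gave 6 lower in WI versus CO, 56 higher and 15 lower in MR versus MS, 95 lower in MS versus WI and 30 lower in MR versus WI. A filter of 1 CPM in 5 libraries gave 1 lower in WI versus CO. Fits of the compared groups alone gave 11 higher in WI versus CO, 15 higher and 45 lower in MR versus MS and 38 lower in MR versus WI. A threshold of 500 CPM gave 272 members, with 44 higher and 3 lower in WI versus CO, 14 and 44 in MR versus MS, 73 higher in MS versus WI and 38 higher in MR versus WI. A threshold of 2000 gave 82 members, with 11 higher in WI versus CO, 4 higher and 14 lower in MR versus MS, 20 and 26 in MS versus WI and 14 and 7 in MR versus WI. A median of 1000 CPM gave 14 lower in MR versus MS, 25 higher in MS versus WI and 10 higher in MR versus WI.

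The members' share was 63.2% (WI), 71.4% (MS) and 62.9% (MR) at 500 CPM, 38.4% (CO), 43.1% (WI), 54.3% (MS) and 44.3% (MR) at 2000, 56.2% (MS) and 51.0% (MR) by the median, and 47.4% (WI), 52.4% (MS) and 44.6% (MR) without the 2 most counted genes. Without those genes the number of genes for 50% of counts differed by 0.76 between MR and MS and -0.48 between MS and WI on the log2 scale, with adjusted exact permutation p-values of 0.0317 and 0.0635. The 20 most counted genes gave differences of -13.5 points in MR versus MS and 16.2 in MS versus WI, with adjusted exact permutation p-values of 0.0476.

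Leaving out 1 library gave 13 to 43 members higher and 0 to 2 lower in WI versus CO and 4 to 36 lower in MR versus WI. The log2 difference in genes for 50% of counts ranged from 1.42 to 2.04 in MR versus MS, -1.95 to -1.33 in MS versus WI and -0.00498 to 0.30 in MR versus WI. The share of the first 10 genes ranged from -14.8 to -9.51 points in MR versus MS and from 12.4 to 17.7 in MS versus WI. Values near 0 changed sign: CPIJ013259 (-0.0183 to 0.43) and CPIJ001132 (-0.0485 to 0.10) in WI versus CO, CPIJ009571 (-0.17 to 0.012) in MS versus WI, and CPIJ040092 (-0.0579 to 0.31), CPIJ016836 (-0.15 to 0.43), CPIJ040079 (-0.41 to 0.096) and CPIJ008101 (-0.0238 to 0.22) in MR versus WI. Library size alone also turned CPIJ013259 to -0.0508 and CPIJ001132 to -0.30 in WI versus CO and CPIJ009571 to 0.0884 in MR versus MS.

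With the replicate block, 44 members were higher and 3 lower in WI versus CO, 13 and 40 in MR versus MS, 52 and 77 in MS versus WI and 27 and 48 in MR versus WI. In the other comparisons, libraries with the same number had correlations from -0.0246 to 0.127 in MR versus MS, 0.0228 to 0.274 in MS versus WI and 0.0928 to 0.179 in MR versus WI.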

Other observations

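The values of the following members were chosen for description after they had been seen. CPIJ012251 and CPIJ015023, without a name or term, were higher in MS than in WI. Both were members only through the MS libraries, so their high level in MS is not independent of the rule of membership. CPIJ015023 had 35.5, 119, 44.1, 34.8 and 53 CPM in the CO libraries and 121, 251, 126, 232 and 161 in the WI libraries. Its values were 4538, 5349.7, 3901, 4968 and 4824 CPM in the MS libraries and 2048, 1414, 404, 506 and 987 in the MR libraries. CPIJ015023 was 26.5-fold higher in MS than in WI (edgeR, FDR = 1.65e-07) and 6.02-fold higher in MR than in WI (FDR = 0.000318), with replicates 3 and 4 lowest in MR. CPIJ012251 had 281 ± 126 CPM in CO, 919 ± 294 in WI, 3877 ± 765 in MS and 1550 ± 636 in MR, and it was higher in WI than in CO and in MS than in WI (1.71 ± 0.32, FDR = 0.00136 and 2.08 ± 0.32, FDR = 6.21e-05).

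The identifiers of 4 members begin with CPIJ04, among them CPIJ040092 and CPIJ040079, and the other two varied widely within groups. CPIJ040084 had 45.9, 532, 52.5, 123 and 275 CPM in the CO libraries and 268, 1500.4, 59.9, 709 and 269 in the WI libraries. Its values were 416, 1162, 1958, 545 and 8081 CPM in the MS libraries and 205, 511, 2657, 2653 and 588 in the MR libraries. MS replicate 5 was the highest library, and no comparison of CPIJ040084 passed (FDR = 0.103 in MS versus WI). CPIJ040088 had 17.1, 199.5, 24.1, 51.7 and 108 CPM in the CO libraries and 96.1, 639, 98.9, 275 and 182 in the WI libraries. Its values were 383, 1656, 1628, 839 and 9827 CPM in the MS libraries and 342, 552, 1796, 1666 and 366 in the MR libraries. MS replicate 5 was again the highest, and CPIJ040088 was higher in MS than in WI (log2 fold change 3.47 ± 0.86, FDR = 0.00533). MS replicate 1, at 383 CPM, lay inside the WI range of 96.1 to 639. No value without MS replicate 5 is given for this call. CPIJ040084 and CPIJ040088 were members only through the MS libraries, so their high level in MS is not independent of the rule of membership. CPIJ007454, without a name, had 707, 5409, 978, 1904 and 1292 CPM in CO, with CO replicate 2 highest, and 2058 ± 1926 CPM in CO, 1284 ± 448 in WI, 233 ± 77.5 in MS and 508 ± 165 in MR. It was lower in MS than in WI (log2 fold change -2.46 ± 0.45, FDR = 0.000387).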
